A study of Homo sapiens with 18 samples.

Results

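The circadian clock genes described here are 10 human genes, NR1D1, NR1D2, PER1, PER2, PER3, CRY1, CRY2, DBP, BMAL1 (listed as ARNTL in older annotations) and CLOCK, of 35579 genes with a transcript in the tables. They were chosen by their known role as core clock genes or a clock output, with the gene counts by group and guide of these same libraries in view. All 10 were among the 13527 genes that passed a filter on low counts, so none was lost to it. Calls for them are therefore descriptions of these libraries and not independent evidence for a choice made with the values known.

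The libraries are poly(A) RNA-seq of hiF-T cells, human fibroblast-like cells from BJ skin fibroblasts with inducible expression of the telomerase gene hTERT. CRISPR guides targeted CDKN1A (guides 1 and 2, 4 libraries), KDM1A (guides 2 and 3, 4 libraries) or SPP1 (guides 1, 2 and 3, 6 libraries), and the controls carried a control guide in the backbone (guides 1 and 2, 4 libraries). Each guide had biological replicates 1 and 2, and all libraries share the hiF-T background and a genotype given as WT. CDKN1A encodes the CDK inhibitor p21, KDM1A the histone demethylase LSD1, and SPP1 the secreted phosphoprotein osteopontin. The labels call the perturbation a knockdown; whether the hTERT transgene was induced, how the guides act, the time of harvest, any synchronisation of the cells and whether replicates were separate cultures are not stated in the labels. The p-values thus measure the spread between these libraries, which may be technical.

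The mammalian clock is a feedback loop of transcription. CLOCK and BMAL1 form a dimer that binds E-box sequences and switches on the PER, CRY and NR1D genes and DBP; the PER and CRY proteins then bind the dimer and shut it off. NR1D1 and NR1D2 (REV-ERB alpha and beta) are nuclear receptors that repress BMAL1 and CLOCK through elements they share with the activating ROR receptors, and DBP activates genes through D-boxes. Cultured fibroblasts carry such clocks, which drift out of step with each other unless a stimulus sets them together. A bulk library averages over the phases of its cells.

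The promoter windows of the members that differed between groups, and of BMAL1 as a known NR1D1 target, are given with exact matches to words of these inputs. The windows are RefSeq sequence of build GRCh38.p14 and run from 250 bases before an annotated start to 50 bases after its first base, 300 bases in all. Capitals mark matches on either strand to an E-box (CACGTG), an E-prime box (CACGTT), a D-box (TTATGTAA, TTATGCAA or TTACGTAA), a ROR/NR1D element (TAGGTCA or TGGGTCA) or a cyclic AMP element (TGACGTCA).
NR1D1 (chr17:40100540-40100839, minus strand): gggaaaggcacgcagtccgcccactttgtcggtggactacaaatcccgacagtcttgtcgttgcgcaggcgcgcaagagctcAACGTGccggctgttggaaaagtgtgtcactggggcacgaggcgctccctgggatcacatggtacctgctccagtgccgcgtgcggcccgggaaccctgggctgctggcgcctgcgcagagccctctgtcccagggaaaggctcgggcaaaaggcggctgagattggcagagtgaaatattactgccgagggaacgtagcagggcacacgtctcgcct
NR1D2, second annotated start (chr3:23945871-23946170, plus strand): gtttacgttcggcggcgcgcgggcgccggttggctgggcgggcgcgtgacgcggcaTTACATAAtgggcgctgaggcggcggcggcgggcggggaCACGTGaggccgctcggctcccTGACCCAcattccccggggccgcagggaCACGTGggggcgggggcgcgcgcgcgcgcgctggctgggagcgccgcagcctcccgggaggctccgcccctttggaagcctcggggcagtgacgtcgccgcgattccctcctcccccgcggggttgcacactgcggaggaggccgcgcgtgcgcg
PER2 (chr2:238288561-238288860, minus strand): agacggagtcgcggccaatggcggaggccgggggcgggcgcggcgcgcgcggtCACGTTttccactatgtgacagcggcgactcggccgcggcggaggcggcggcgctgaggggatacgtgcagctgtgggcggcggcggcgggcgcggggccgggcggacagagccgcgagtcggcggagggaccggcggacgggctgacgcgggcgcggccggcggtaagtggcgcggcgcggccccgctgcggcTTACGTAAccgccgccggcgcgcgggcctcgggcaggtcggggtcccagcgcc
PER3, first annotated start (chr1:7784041-7784340, plus strand): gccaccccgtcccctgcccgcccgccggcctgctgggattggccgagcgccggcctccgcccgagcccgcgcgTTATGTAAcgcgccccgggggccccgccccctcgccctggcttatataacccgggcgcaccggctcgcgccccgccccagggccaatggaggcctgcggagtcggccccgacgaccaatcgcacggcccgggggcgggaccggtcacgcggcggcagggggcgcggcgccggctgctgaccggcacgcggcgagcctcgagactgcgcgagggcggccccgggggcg
BMAL1, first annotated start (chr11:13277540-13277839, plus strand): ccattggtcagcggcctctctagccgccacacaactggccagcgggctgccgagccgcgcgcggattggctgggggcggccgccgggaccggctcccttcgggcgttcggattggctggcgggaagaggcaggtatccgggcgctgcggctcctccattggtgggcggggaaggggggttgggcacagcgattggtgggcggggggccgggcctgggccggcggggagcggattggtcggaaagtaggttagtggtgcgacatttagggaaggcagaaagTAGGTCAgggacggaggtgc
NR1D1 holds 1 E-prime box, on the minus strand of the window. NR1D2 holds 2 E-boxes, at -155 and -105 from the start, with a D-box and a ROR/NR1D element. PER2 holds an E-prime box and a D-box that spans the start, PER3 holds a D-box at -177, and BMAL1 holds a ROR/NR1D element at 31. The windows of the other annotated starts of NR1D2, PER3 and BMAL1, not printed, hold no match. The matches are descriptions of these letters, not of bound sites, and no match overlaps another. Variants of these words and sites outside the windows were not searched, so the counts of elements can be too low.

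All 10 members had at least 1 window in the table, 15 windows in all, and the windows of the 2 PER3 starts overlap. An E-box was found in 2 of the 15, at NR1D2 and PER1, against 7.26% of the 35116 windows of all genes. An E-prime box was found in 5 (NR1D1, PER2, CRY1, CRY2 and CLOCK), against 5.34% of all windows. A D-box was found in 4 (NR1D2, PER1, PER2 and PER3), against 1.84% of all windows. A ROR/NR1D element was found in 4 (NR1D2, CRY2, BMAL1 and CLOCK), against 5.69% of all windows. None held the cyclic AMP element, which 1.85% of all windows hold, and DBP held none of the 8 words searched.

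Library totals ranged from 11907197 to 17016094 estimated counts, and the ranges of the groups overlapped. Pearson correlations of log2 CPM (counts scaled to a common library total with TMM factors, not to length) between libraries of a group, across genes, were 0.981 or more. Of the targets, CDKN1A averaged 356.6 CPM in its knockdown and 612.2 in control, and KDM1A 62.7 and 118.4 CPM. SPP1 averaged 39.7 CPM in its knockdown and 64.6 CPM in control, a difference that did not pass the test (adjusted p 0.0695, edgeR). The targets also varied in the other knockdowns. SPP1 averaged 116.7 CPM in CDKN1A knockdown and 132.1 CPM in KDM1A knockdown. CDKN1A averaged 486.8 CPM in KDM1A knockdown and 491.6 CPM in SPP1 knockdown, while KDM1A averaged 120.6 CPM in CDKN1A knockdown and 115.5 CPM in SPP1 knockdown. Of 6 fibroblast markers all but THY1 were above 1 CPM on average, and THY1 lay at 0 to 0.454 CPM; the summed markers of melanocytes and of endothelial cells reached at most 1.76 and 1.24 CPM in any library. The 4 keratinocyte genes summed to 51.8 to 68.9 CPM over all libraries and the 3 leukocyte genes to 50.2 to 72.9 CPM, mostly KRT10 and CD68, with PTPRC under 1 CPM on average. The control guides differed: FOS, an immediate early gene, had 9.32 and 8.47 CPM with guide 2, and 31.7 and 31.8 CPM with guide 1.

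**Figure D1:**
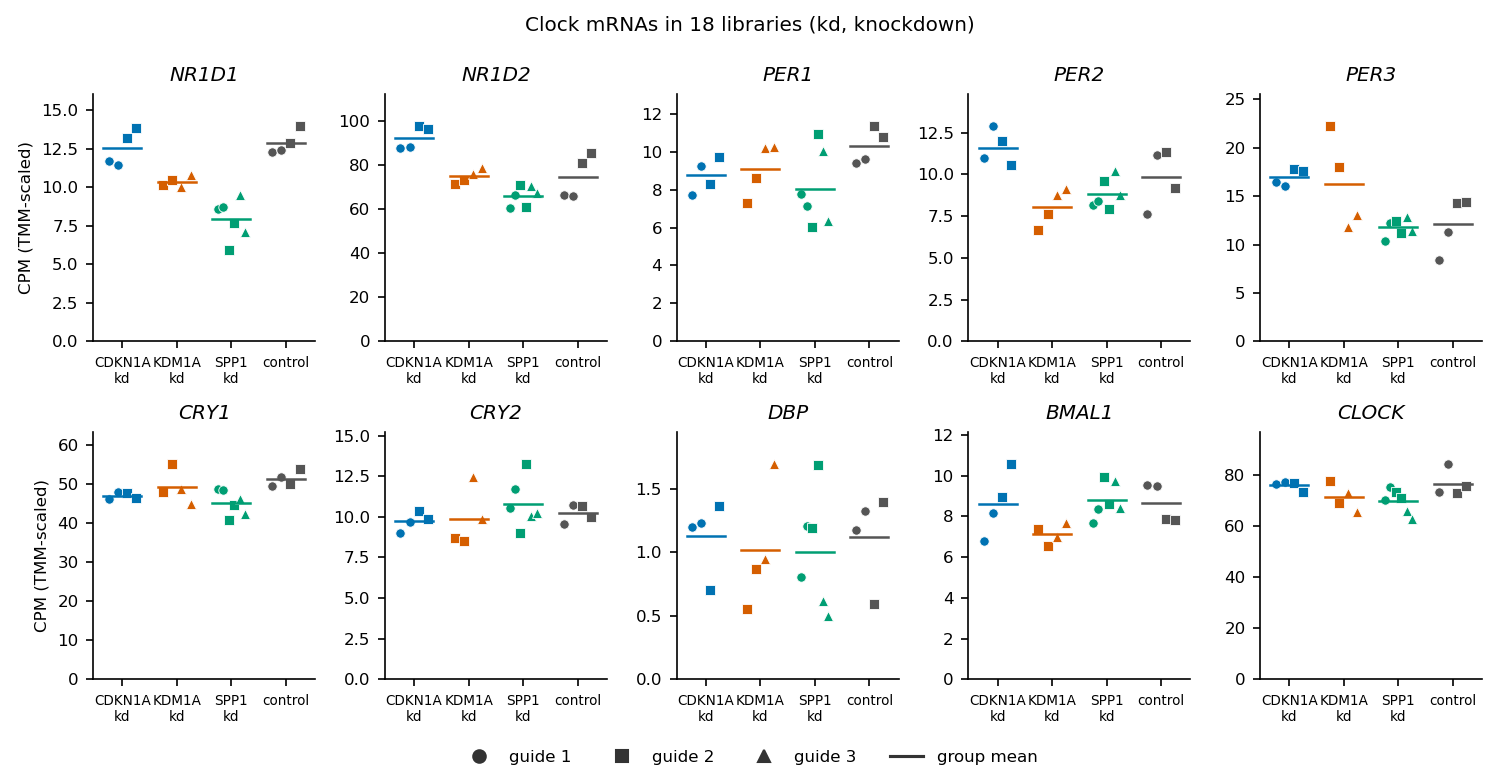
CPM of the 10 clock genes in each of the 18 libraries, by group from left to right; marker shape gives the guide and the bar the group mean, each axis starting at 0. NR1D1 in all 6 SPP1 knockdown libraries lies under all 4 control libraries, and PER3 splits by guide within KDM1A knockdown.

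Per transcript length, the members fell into steps in control cells. CRY1, a repressor of CLOCK and BMAL1, was highest at 30.7 ± 2.02 TPM (transcript abundance scaled to length and library total; SD, n = 4), followed by NR1D2 at 23.9 ± 3.25 TPM and CLOCK at 20.2 ± 3.69 TPM. PER1 had 9.56 ± 0.99 TPM, NR1D1 8.06 ± 0.58 TPM, BMAL1 7.21 ± 2.05 TPM and CRY2 6.26 ± 0.94 TPM. PER3 had 4.67 ± 1.45 TPM and PER2 2.57 ± 0.62 TPM. The output gene DBP was lowest at 0.56 ± 0.10 TPM. The ranges over the 4 control libraries were apart between CRY1 and NR1D2, between CLOCK and PER1, and between PER2 and DBP; every other pair of neighbours in this order overlapped.

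DBP rested on 6 to 27 counts per library, and its transcript DBP-203, annotated as a retained intron, held a median of 65.8% of them. Its locus shares 661 exon bases with SPHK2 on the opposite strand in GENCODE 29. No fold change of DBP is precise at this depth: its SE against control was 0.35 to 0.38 on the log2 scale, whereas no other member's exceeded 0.17.

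SPP1 knockdown was compared with control to see which clock mRNAs differ when osteopontin is targeted. NR1D1 fell, to 61.8% of its control level. The other 9 members did not pass the test. NR1D1 in SPP1 knockdown cells had 5.95 CPM in its lowest library, a median of 8.14 CPM and 9.48 CPM in its highest, against 12.3, 12.4, 12.9 and 14.0 CPM in control cells. Every SPP1 knockdown library lay below every control library. The log2 fold change was -0.69 ± 0.10 (SE; adjusted p 0.00209, edgeR's quasi-likelihood test with Benjamini-Hochberg adjustment over 13527 genes). Of all genes tested, 5.46% were called in this comparison, and of the 10 members 1 was, which is read here as a description. The share of all genes whose groups separate completely was not counted, here or in the comparisons below. In a bulk library, fewer cells with an mRNA and less of it per cell cannot be told apart.

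The fall was present with each guide to SPP1. Against the mean of the 2 control guides, in a fit with a coefficient per guide, the log2 fold change of NR1D1 was -0.57 ± 0.12 with guide 1, -0.92 ± 0.13 with guide 2 and -0.63 ± 0.12 with guide 3. Between guide 1 and the mean of guides 2 and 3, NR1D1 was not called (log2 0.20 ± 0.12, adjusted p 0.423, edgeR). The SPP1 mRNA itself had 24.2 and 26.9 CPM in the libraries of guide 1, 47.4 and 55.2 CPM with guide 2, and 63.0 and 21.7 CPM with guide 3. The library of guide 3 replicate 1 thus held SPP1 within the control range of 55.2 to 72.7 CPM, and NR1D1 at 9.48 CPM, below all controls. Whether NR1D1 followed the level of SPP1 mRNA was not tested. The call was lost where the libraries of a guide were summed to 1 sample (log2 -0.69, adjusted p 0.247), and held in the 30 other alternatives tried. The immediate early genes, which serum and stress induce, moved in this comparison too: 8 of 9 were tested, 5 fell and none rose. They also moved in the others, with 2 of the 8 called lower in CDKN1A knockdown, where NR1D1 had a log2 fold change of -0.04, and 3 in KDM1A knockdown, and none higher. Summed, the 9 genes came to 463.1 to 489.8 CPM in CDKN1A knockdown, 444.6 to 587.5 CPM in KDM1A knockdown and 370.8 to 498.3 CPM in SPP1 knockdown, against 516.6 to 593.8 CPM in control. Of the 5 that fell, FOS, FOSB and JUNB also differed between the control guides (log2 -1.83, -2.18 and -0.66 for guide 2 over guide 1, each called). The part of these genes in the fall of NR1D1 was not tested.

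NR1D1 lies on chromosome 17 at 40092787 to 40100725 of GRCh38 (minus strand), and its 3' end overlaps that of THRA, the gene of thyroid hormone receptor alpha, on the opposite strand. In GENCODE 29 they share 263 of the 2772 exon bases of NR1D1. The library kit named in the labels does not mark strand, so reads in the shared bases cannot be told apart by strand. THRA had a lowest value of 20.8 CPM, a median of 26.1 CPM and a highest of 28.1 CPM in SPP1 knockdown, against 17.8, 18.4, 21.7 and 21.2 CPM in control, and rose (log2 0.34 ± 0.09, adjusted p 0.0253, edgeR). Summed, NR1D1 and THRA came to 33.1 ± 2.35 CPM in SPP1 knockdown (SD, n = 6) and 32.7 ± 2.57 CPM in control (n = 4). By guide, THRA averaged 21.7 CPM with SPP1 guide 1, 27.7 CPM with guide 2 and 26.1 CPM with guide 3. NR1D1 averaged 8.65, 6.81 and 8.28 CPM with the same guides. Whether the division of reads between the genes had a part in either change was not tested.

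**Figure D2:**
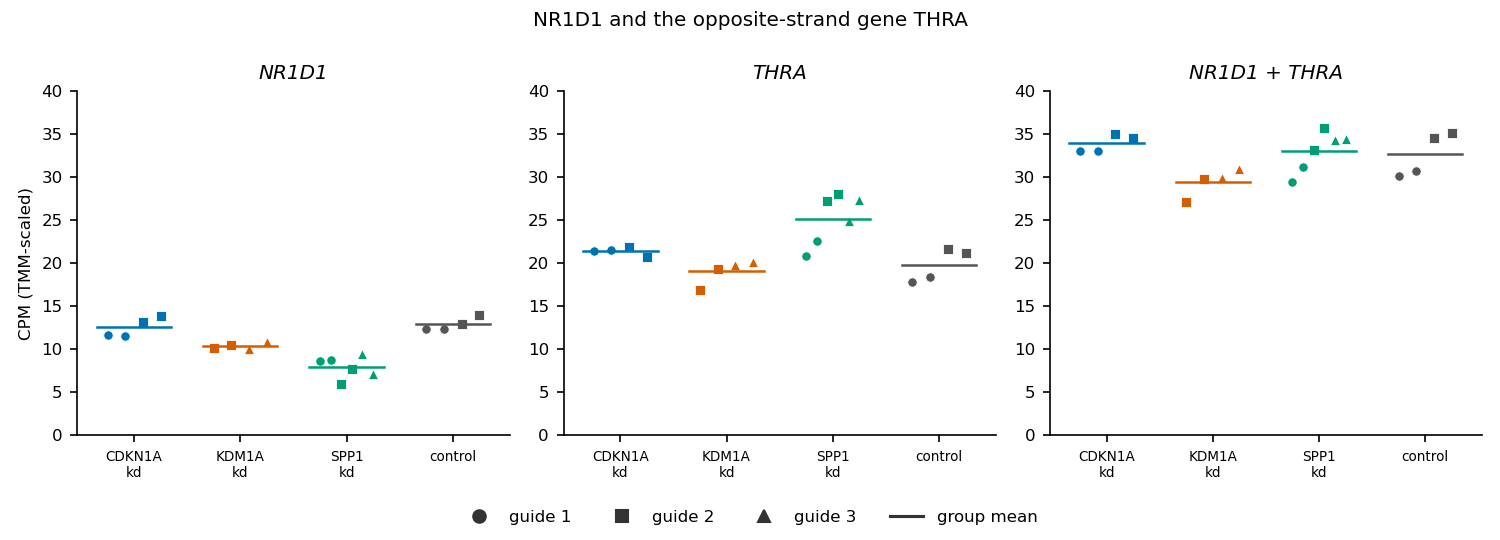
CPM of NR1D1, of THRA on the opposite strand and of their sum in the 18 libraries by group; marker shape gives the guide and bars are group means. In SPP1 knockdown NR1D1 lies lowest and THRA highest of the 4 groups on average, and the sum averages 33.1 CPM, against 32.7 CPM in control.

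The other repressors of the loop stayed closer to control in SPP1 knockdown. CRY1 had 40.8, 45.4 and 48.7 CPM (lowest, median and highest) in SPP1 knockdown, against 49.4, 51.8, 50.1 and 53.8 CPM in control. All 6 knockdown libraries lay below all controls, yet the log2 fold change of -0.18 ± 0.06 did not pass (adjusted p 0.0814). PER1, whose protein feeds back on CLOCK and BMAL1, had 6.03, 7.48 and 10.96 CPM in SPP1 knockdown, against 9.40, 9.61, 11.4 and 10.8 CPM in control (log2 -0.35 ± 0.15, adjusted p 0.182). NR1D2 had a log2 fold change of -0.17 ± 0.07 (adjusted p 0.172) and CLOCK one of -0.13 ± 0.06 (adjusted p 0.197). Of the 31 alternatives, CRY1 was called in 2, NR1D2 in 1, and PER1 and CLOCK in 0. The activator BMAL1, which NR1D1 is known to repress, had 8.79 ± 0.88 CPM in SPP1 knockdown (SD, n = 6) and 8.68 ± 0.95 CPM in control (n = 4). Its log2 fold change of 0.02 had an approximate 95% interval of -0.21 to 0.24, so changes within that range cannot be told from none.

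PER1 was uneven within the SPP1 guides. With guide 2 it had 6.03 and 10.96 CPM in replicates 1 and 2, and with guide 3 it had 10.02 and 6.33 CPM. BHLHE40, a clock-controlled repressor, was uneven in the same libraries, with 9.26 and 28.1 CPM with guide 2 and 18.4 and 11.7 CPM with guide 3. The immediate early gene NR4A1 had 4.25 and 12.0 CPM with guide 2 and 10.5 and 3.16 CPM with guide 3. These genes were picked after their values were seen, and whether the same condition of the cultures moved them was not tested.

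CDKN1A knockdown was compared with control to see which clock mRNAs differ when p21 is targeted. NR1D2, the paralogue of NR1D1, rose to 123.8% of control, and no other member passed the test. NR1D2 had 87.5, 87.9, 97.5 and 96.0 CPM in CDKN1A knockdown, against 66.2, 65.6, 80.9 and 85.2 CPM in control. All 4 knockdown libraries lay above all controls, the nearest by a small margin. The log2 fold change was 0.31 ± 0.08 (adjusted p 0.0468, edgeR), in a comparison where 2.00% of all genes were called.

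This call lay near the threshold and depended on the libraries used, those of control guide 1 among them. The control guides themselves differed in NR1D2, with 80.9 and 85.2 CPM for guide 2 and 66.2 and 65.6 CPM for guide 1 (log2 0.33 ± 0.07, adjusted p 0.0279, where 1.34% of all genes were called between the control guides). Without control guide 1 the rise was 0.15 on the log2 scale (adjusted p 0.439), and without control guide 2 it was 0.49 (adjusted p 0.00475). It was not called in 20 of the 30 alternatives, with adjusted p of 0.000918 to 0.492 over all of them. Leaving out 1 library ended it in 14 of 18 cases (adjusted p 0.0504 to 0.157), each library of CDKN1A knockdown and of control guide 1 among them.

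PER3 had the largest log2 fold change of the members in CDKN1A knockdown but did not pass. It had 16.4, 16.1, 17.8 and 17.6 CPM, against 8.43, 11.3, 14.3 and 14.4 CPM in control (log2 0.48 ± 0.17, adjusted p 0.144). PER3 was called in 1 of the 30 alternatives. The knockdown libraries again lay above all controls, and the low controls were again those of guide 1. PER2 had 11.6 ± 1.05 CPM in CDKN1A knockdown and 9.82 ± 1.78 CPM in control (SD, n = 4 each; log2 0.24 ± 0.13, adjusted p 0.364). CRY1 had 47.0 ± 0.98 CPM in CDKN1A knockdown, below all controls, and 51.3 ± 1.93 CPM in control (log2 -0.12 ± 0.06, adjusted p 0.356). NR1D1, CLOCK and BMAL1 had log2 fold changes of -0.04, -0.01 and -0.01, with approximate 95% intervals of -0.25 to 0.17, -0.13 to 0.11 and -0.26 to 0.23.

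KDM1A knockdown was compared with control to see which clock mRNAs differ when LSD1 is targeted. No member passed the test in edgeR or in DESeq2, while 9.05% of all genes tested were called in edgeR. In the edgeR fit 4 of the 10 members (NR1D1, PER3, BMAL1 and PER2) had an unadjusted p under 0.05, as did 3060 of all 13527 genes. NR1D1 had 10.1, 10.5, 10.04 and 10.8 CPM in KDM1A knockdown, against 12.3, 12.4, 12.9 and 14.0 CPM in control. Its 4 knockdown libraries lay below all controls and close to each other (log2 -0.31 ± 0.11, adjusted p 0.0848). The adjusted p fell under 0.05 in 3 of the 30 alternatives: with the compared groups alone (0.0478), with a coefficient per guide (0.0338) and without SPP1 guide 2 replicate 1 (0.0445).

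BMAL1 had 7.36, 6.55, 6.98 and 7.66 CPM in KDM1A knockdown, against 9.54, 9.47, 7.86 and 7.85 CPM in control. Its 4 knockdown libraries also lay below all controls (log2 -0.28 ± 0.13, adjusted p 0.184), but with a transcript length offset the log2 fold change was 0.10 (adjusted p 0.890). PER2 had 8.04 ± 1.13 CPM in KDM1A knockdown and 9.82 ± 1.78 CPM in control (SD, n = 4 each; log2 -0.29 ± 0.13, adjusted p 0.198), and with the length offset its log2 fold change was 0.003 (adjusted p 0.997). CLOCK had a log2 fold change of -0.10 ± 0.06 and NR1D2 one of 0.01 ± 0.08, with an approximate 95% interval of -0.15 to 0.16.

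PER3 in KDM1A knockdown depended on the guide. It had 11.9 and 13.0 CPM with guide 3, and 22.3 and 18.03 CPM with guide 2, and the guides differed (log2 -0.69 ± 0.14 for guide 3 over guide 2, adjusted p 0.00679). Between these guides 6.15% of all genes were called. KDM1A mRNA was 50.7 and 52.0 CPM with guide 3 and 73.2 and 75.0 CPM with guide 2. The guide with less KDM1A mRNA left thus had PER3 within the control range of 8.43 to 14.4 CPM. That range is wide, as PER3 averaged 9.86 CPM with control guide 1 and 14.4 CPM with control guide 2. Whether PER3 followed the level of KDM1A mRNA was not tested. Against control, PER3 had a log2 fold change of 0.42 ± 0.17 over both guides (adjusted p 0.133), 0.04 without guide 2 (adjusted p 0.929) and 0.74 without guide 3 (adjusted p 0.00645). Without control guide 2 it was 0.73 (adjusted p 0.0294), and without KDM1A guide 3 replicate 1 it was 0.55 (adjusted p 0.0488).

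**Figure D3:**
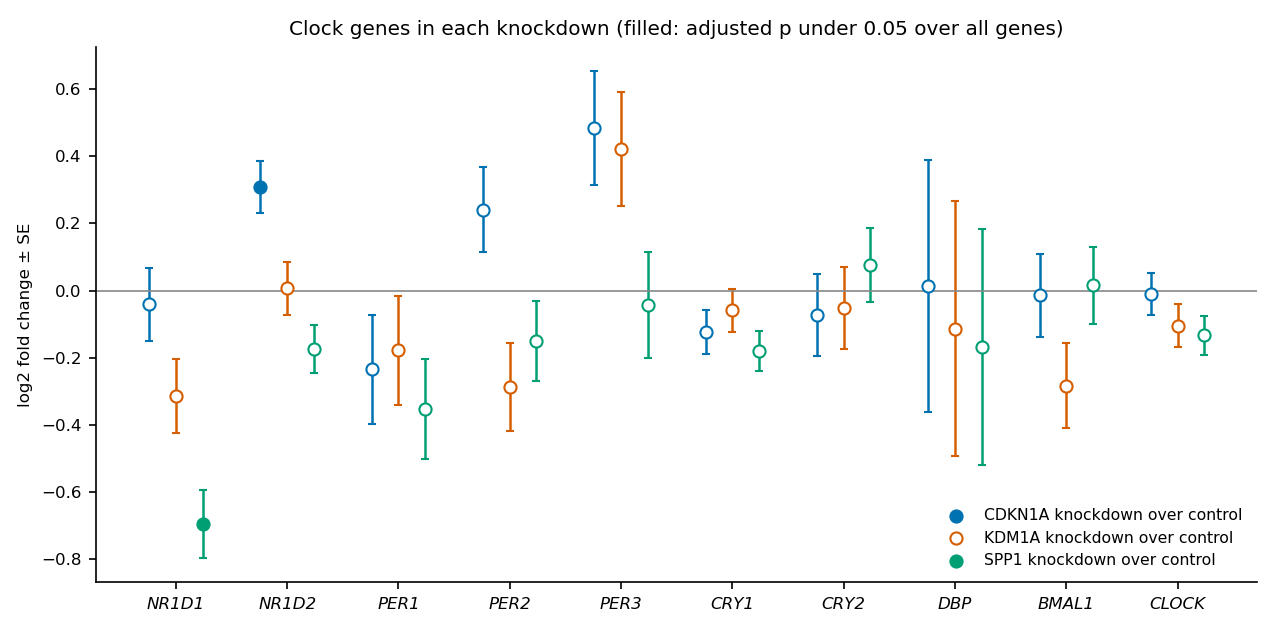
Log2 fold change of each clock gene in CDKN1A, KDM1A and SPP1 knockdown over control, from a fit to all 18 libraries; bars are 1 SE and filled points passed an adjusted p of 0.05. NR1D1 in SPP1 knockdown (-0.69) and NR1D2 in CDKN1A knockdown (0.31) are the filled points. All 3 comparisons share the control libraries.

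The knockdowns were also compared with each other, which leaves the shared controls out of the contrast. Between CDKN1A and SPP1 knockdown, 4 members were higher in CDKN1A knockdown and none lower, where 12.0% of all genes were called. The 4 were the nuclear receptors NR1D1 (log2 0.65 ± 0.10, adjusted p 0.000485, edgeR) and NR1D2 (0.48 ± 0.07, adjusted p 0.000307) and the feedback genes PER2 (0.39 ± 0.12, adjusted p 0.0345) and PER3 (0.53 ± 0.15, adjusted p 0.0309). For each of them all 4 CDKN1A knockdown libraries lay above all 6 SPP1 knockdown libraries, a description without a count of such separation over all genes. NR1D2 had 87.5 to 97.5 CPM in CDKN1A knockdown and 60.3 to 71.0 CPM in SPP1 knockdown, and PER3 16.1 to 17.8 CPM and 10.4 to 12.9 CPM.

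NR1D1 was called in all 31 alternatives of that comparison, and NR1D2 in all but the summed guides (adjusted p 0.0547). PER2 and PER3 were called in 18 of 31 each, and both lost the call without either CDKN1A guide (adjusted p 0.178 and 0.157 for PER2, 0.0877 and 0.261 for PER3) and without SPP1 guide 1 or 2 (0.108 and 0.0692 for PER2, 0.0802 and 0.0638 for PER3). PER3 lost it also without SPP1 guide 3 (0.0594), and both with summed guides or a transcript length offset. Of single libraries, PER2 needed CDKN1A guide 1 replicates 1 and 2 and guide 2 replicate 1, and SPP1 guide 1 replicates 1 and 2 and guide 2 replicate 2 (adjusted p without them 0.0507 to 0.116). PER3 needed each of the 4 CDKN1A knockdown libraries, SPP1 guide 1 replicate 1 and SPP1 guide 2 replicate 2 (0.0531 to 0.0869). The other 6 members had log2 fold changes between -0.15 and 0.18 in this comparison, none of which passed.

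Between KDM1A and CDKN1A knockdown 2 members were lower in KDM1A knockdown, where 14.9% of all genes were called. NR1D2 had 71.4, 73.2, 75.7 and 78.7 CPM in KDM1A knockdown, against 87.5, 87.9, 97.5 and 96.0 CPM in CDKN1A knockdown (log2 -0.30 ± 0.08, adjusted p 0.0127). PER2 had 6.65, 7.61, 8.80 and 9.11 CPM in KDM1A knockdown, against 11.0, 12.9, 12.0 and 10.6 CPM in CDKN1A knockdown (log2 -0.53 ± 0.13, adjusted p 0.00929). Neither gene overlapped between the groups. Both calls were lost with summed guides (adjusted p 0.171 for NR1D2 and 0.0741 for PER2), without KDM1A guide 2 (adjusted p 0.141 for NR1D2 and 0.155 for PER2) and without CDKN1A guide 2 (0.207 and 0.0525), and that of PER2 also without CDKN1A guide 1 (0.0704) and with a transcript length offset (0.147). Without CDKN1A guide 2 replicate 1 the adjusted p of NR1D2 was 0.0504.

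Between KDM1A and SPP1 knockdown only NR1D1 was called, higher in KDM1A knockdown, where 11.9% of all genes were called. It had 10.04 to 10.8 CPM in KDM1A knockdown and 5.95 to 9.48 CPM in SPP1 knockdown (log2 0.38 ± 0.10, adjusted p 0.0214), and the groups did not overlap. The call was lost with the compared groups alone (adjusted p 0.0684), with summed guides (0.168), with a transcript length offset (0.0557), without SPP1 guide 2 (0.0714), without either KDM1A guide (0.165 without guide 2, 0.0732 without guide 3) and without either library of KDM1A guide 2 (0.0504 and 0.0632). PER3 was higher in 3 of 4 KDM1A knockdown libraries than in all SPP1 knockdown libraries but did not pass (log2 0.47 ± 0.15, adjusted p 0.0554).

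**Figure D4:**
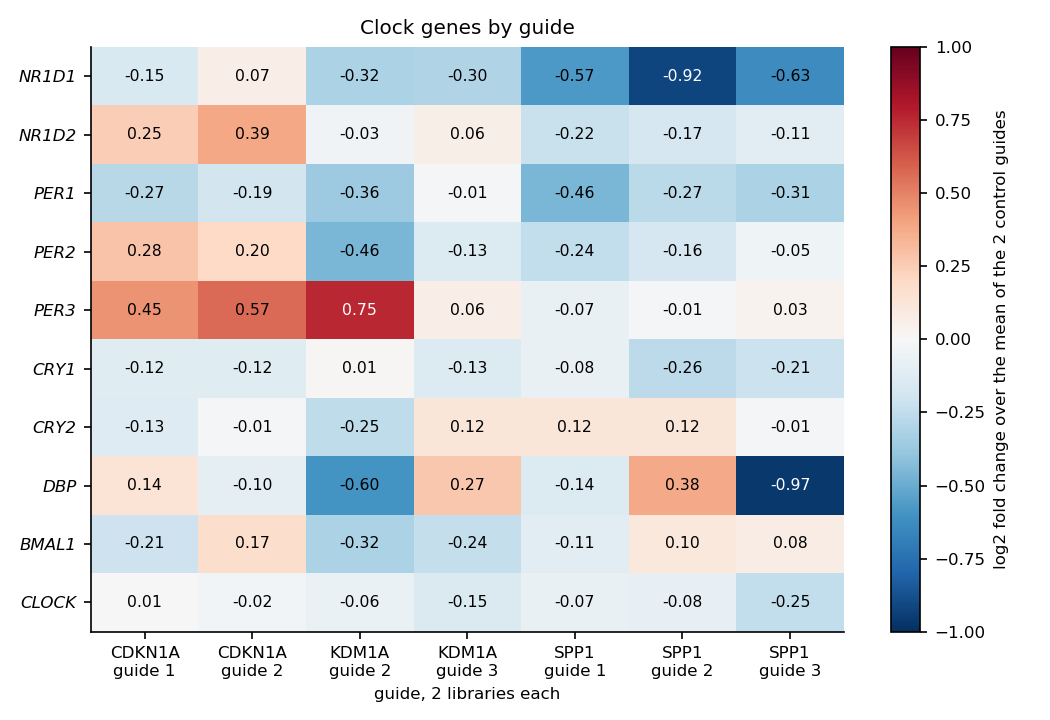
Log2 fold change of each clock gene for each knockdown guide over the mean of the 2 control guides, from the fit with a coefficient per guide. NR1D1 lies between -0.92 and -0.57 for the 3 guides to SPP1, PER3 differs between KDM1A guide 2 (0.75) and guide 3 (0.06), and DBP swings between -0.97 and 0.38 at 6 to 27 counts.

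Of the contrasts between guides of 1 target, those of CDKN1A and of SPP1 called no member. None was called between CDKN1A guides 2 and 1, where 1.28% of all genes were called, and 1 member, BMAL1, had an unadjusted p under 0.05, as did 9.39% of all genes (edgeR; log2 0.38 ± 0.14 for guide 2 over guide 1). No member was called between SPP1 guide 1 and the mean of guides 2 and 3, where 3.90% of all genes were called, and 1, CRY1, had an unadjusted p under 0.05, as did 17.9% of all genes (edgeR; log2 0.16 ± 0.07). In the same contrast THRA was lower with SPP1 guide 1 (log2 -0.31 ± 0.07, adjusted p 0.0251).

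Replicate 2 was set against replicate 1 over all 9 guides to see whether a difference between the replicates moved the clock genes together. No gene was called among 13976 tested (0%) in edgeR or in DESeq2, and 324 had an unadjusted p under 0.05 in edgeR. Of the members only DBP did (log2 0.53 ± 0.18, unadjusted p 0.0124), and it was higher in replicate 2 with 8 of the 9 guides. The other 9 members had log2 differences between -0.01 and 0.08, with SEs of 0.03 to 0.11.

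The members differed in how steady they were. Between the 2 libraries of a guide, the SD of log2 CPM was 0.07 for NR1D2 and 0.08 for CRY1 and for CLOCK, and 0.27 for PER1 and 0.42 for DBP. Over all 18 libraries it was 0.34 for NR1D1 and for PER3, against 0.14 and 0.15 within guides. For PER1 the SD over all libraries was 0.27, as was that within guides. CLOCK had 62.8 to 84.4 CPM over the 18 libraries and CRY2 8.48 to 13.2 CPM. Neither was called in any comparison between groups.

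Transcripts of a gene could also be compared, within the limits of how kallisto divides reads among transcripts that share most of their sequence. CLOCK-201 and CLOCK-211, both annotated as protein-coding, held most of the CLOCK counts. CLOCK-201 held 40.3, 55.3, 36.0 and 45.1% of the CLOCK counts in KDM1A knockdown, against 16.2, 28.7, 6.69 and 32.4% in control. All 4 KDM1A knockdown libraries lay above all controls and above all SPP1 knockdown libraries (5.17 to 18.5%), while CDKN1A knockdown, at 6.89 to 40.5%, overlapped them. NR1D2-202, annotated as a target of nonsense-mediated decay, held 0 to 1.53% of NR1D2 counts in KDM1A knockdown, against 3.36 to 5.59% in control; CDKN1A knockdown, at 1.23 to 3.57%, and SPP1 knockdown, at 1.40 to 5.82%, overlapped both. These transcripts were picked after their values were seen and carry no test; their lengths in the tables are 10304 and 10470 bases for CLOCK-201 and CLOCK-211. The split of PER3 and BMAL1 among near-identical transcripts moved too far between libraries of a guide to be read: PER3-209 held 0 to 90.5% of PER3 counts.

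**Figure D5:**
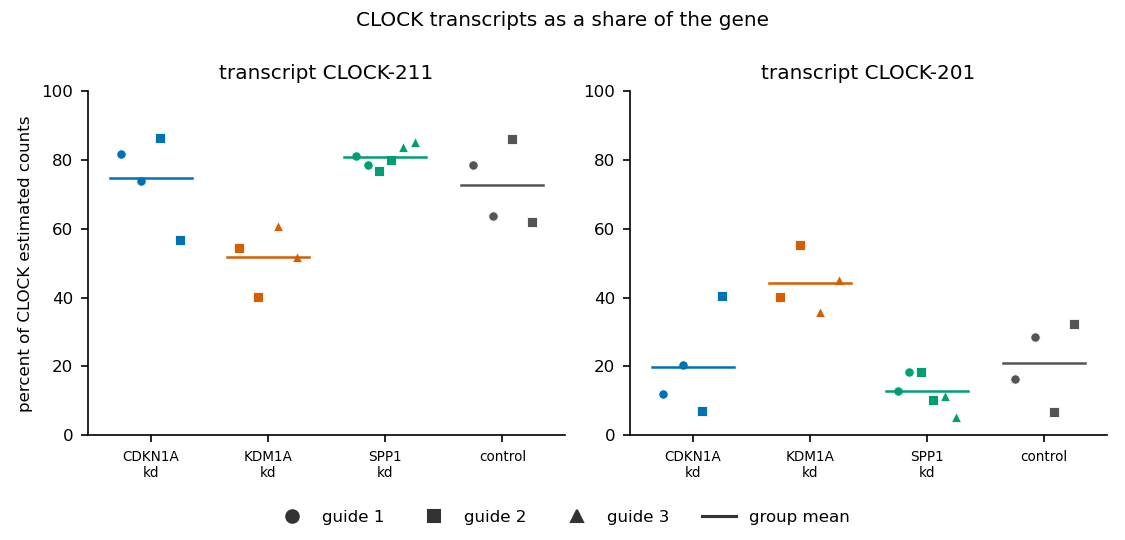
Share of the CLOCK estimated counts assigned to CLOCK-211 and to CLOCK-201 in each library by group; marker shape gives the guide and bars are group means. CLOCK-201 holds 36.0 to 55.3% in KDM1A knockdown, against 6.69 to 32.4% in control.

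Further genes of the clock were taken from a list of 28 (paralogues, ROR receptors, D-box factors, kinases, ubiquitin ligases and modifiers of clock proteins), 23 of which were tested; among the others RORB, HLF, FBXL21P and USP2 were at or under 0.379 CPM in every library. In SPP1 knockdown 1 of the 23 rose and none fell, a share near the 5.46% of all genes called. It was NPAS2, the paralogue that can replace CLOCK, at 86.5 CPM in SPP1 knockdown and 51.8 CPM in control (log2 0.74 ± 0.15, adjusted p 0.0106, edgeR), with all 6 libraries above all controls. NPAS2 also differed between guides of a target: KDM1A guide 3 over guide 2 by 0.83 ± 0.07 on the log2 scale (adjusted p 8.73e-06), and control guide 2 over guide 1 by 0.43 ± 0.08 (adjusted p 0.0125).

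In CDKN1A knockdown 3 of the 23 rose and none fell, where 2.00% of all genes were called. They were BMAL2, the paralogue of BMAL1 (log2 0.41 ± 0.08, adjusted p 0.0112), TEF, a D-box activator related to DBP (0.61 ± 0.13, adjusted p 0.0236), and the clock-controlled cell cycle kinase gene WEE1 (0.24 ± 0.05, adjusted p 0.0165). In KDM1A knockdown 1 of the 23 rose and 3 fell, where 9.05% of all genes were called. CIART, which encodes a repressor of CLOCK and BMAL1, rose (log2 0.61 ± 0.17, adjusted p 0.0307). It averaged 3.99 CPM with control guide 1 and 5.85 CPM with control guide 2. That difference was not called (log2 0.55 ± 0.18 for guide 2 over guide 1, adjusted p 0.168, edgeR). RORA, the activating counterpart of NR1D1, fell (-1.14 ± 0.25, adjusted p 0.00588), with 0.792, 0.936, 1.16 and 2.26 CPM in KDM1A knockdown, against 2.42, 2.86, 3.11 and 3.18 CPM in control. The deacetylase gene SIRT1 fell less (-0.24 ± 0.07, adjusted p 0.0395), with 28.7, 27.8, 26.6 and 24.9 CPM in KDM1A knockdown, against 36.3, 33.4, 29.1 and 28.5 CPM in control. Its high controls were those of guide 1, and with KDM1A guide 2 alone it was not called (adjusted p 0.0803).

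The median log2 fold change of the 23 was 0.09 in CDKN1A knockdown, 0.00 in KDM1A knockdown and -0.03 in SPP1 knockdown. For the 10 members it was -0.01, -0.11 and -0.16, and for all genes tested 0.00, -0.01 and 0.00. In KDM1A over CDKN1A knockdown 3 of the 23 were lower and none higher, where 14.9% of all genes were called: RORA, NAMPT, an enzyme of the NAD salvage pathway that feeds SIRT1, and WEE1. In KDM1A over SPP1 knockdown CIART was higher and RORA, NAMPT and BTRC lower, where 11.9% of all genes were called. In CDKN1A over SPP1 knockdown BMAL2, TEF, CIART, TIMELESS and WEE1 were higher and NPAS2 lower, where 12.0% of all genes were called.

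The genes most like a member were those with the highest Pearson correlation of log2 CPM over the 18 libraries, among 11486 other genes. The libraries fall into guides and groups, so such a correlation partly restates those, and it is given with no p. NR1D1 was closest to IRS2 (r = 0.93), SLC7A5 (0.90) and POLE (0.89), NR1D2 to G3BP1 (0.89), IPO9 (0.88) and SLC7A11 (0.87), and PER3 to RFC1, TMEM123 (0.90 each) and SGCB (0.88). PER2 was closest to HSPA12A (0.84), CRY1 to CORO1C (0.87), CLOCK to RIF1 (0.88), BMAL1 to FBXL17 (0.82) and PER1 to LRP5L (0.80). For CRY2 and DBP no gene passed 0.75.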

How the data were processed

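The authors deposited, per library, a kallisto table of estimated counts (expected counts, not whole and not scaled to depth), TPM and effective lengths for 188753 transcripts; per the submitters' processing notes the build was GRCh38, and neither the kallisto version nor the transcriptome release is stated there. Transcripts were joined to GENCODE 29 genes by unversioned Ensembl identifier (169797 matched; unmatched ones held 2.494 to 2.618% of counts). Some member transcripts have other lengths in the tables than in GENCODE 29, so exon overlaps are approximate. Counts were summed per gene, rounded, filtered with filterByExpr (count minimum 10), TMM-scaled and fitted in edgeR 4.0.16 (R 4.3.3) with 1 coefficient per group over 18 libraries; p-values were adjusted over 13527 genes, called under 0.05. SE is the log2 fold change divided by the root of F. The deposited TPM served for levels between genes only. Model code was tested on simulated data. Alternatives included DESeq2 1.42.0. Members and lists were chosen with earlier results of these data known. All 10 members are named; of further clock genes, at most 6 called ones per comparison; likeness used genes with a mean log2 CPM of 1 or more. Some results on further clock genes are not reported here.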

Additional observations from a re-analysis of the deposited data

How the results depend on the processing

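In the alternatives tried, NR1D1 stayed called in SPP1 knockdown against control in all but the fit to summed guides, and in CDKN1A against SPP1 knockdown in all of them. The number of clock members called, as reported, was 1 for CDKN1A, 0 for KDM1A and 1 for SPP1 knockdown against control, 2 for KDM1A against CDKN1A, 1 for KDM1A against SPP1 and 4 for CDKN1A against SPP1 knockdown. With RLE size factors none of these counts moved past 1.5 times. Without the low-count filter, and in DESeq2, KDM1A against SPP1 knockdown gave 2. With the compared groups alone, CDKN1A gave 0 and KDM1A 1 against control, and KDM1A against SPP1 knockdown 0. With a coefficient per guide, CDKN1A gave 2, KDM1A 2 and SPP1 3 against control, and KDM1A against SPP1 knockdown 4. With both libraries of a guide summed, CDKN1A and SPP1 gave 0 against control, KDM1A gave 0 against CDKN1A and 0 against SPP1 knockdown, and CDKN1A against SPP1 knockdown 1. With a transcript length offset, KDM1A gave 1 against CDKN1A and 0 against SPP1 knockdown, and CDKN1A against SPP1 knockdown 2. Without control guide 1 CDKN1A gave 0, and without control guide 2 KDM1A gave 1. Without CDKN1A guide 1, CDKN1A gave 0 against control and 2 against SPP1 knockdown; without CDKN1A guide 2, CDKN1A gave 0 against control, KDM1A 0 against CDKN1A, and CDKN1A 2 against SPP1 knockdown. Without KDM1A guide 2, KDM1A gave 0 against CDKN1A and 0 against SPP1 knockdown; without KDM1A guide 3 it gave 1 against control. Without SPP1 guide 1, SPP1 gave 2 against control and CDKN1A 2 against SPP1 knockdown; without SPP1 guide 2, KDM1A gave 0 and CDKN1A 2 against SPP1 knockdown. Leaving out 1 library at a time gave 0 to 1 for CDKN1A, 0 to 1 for KDM1A and 1 in every case for SPP1 against control, 1 to 2 for KDM1A against CDKN1A, 0 to 2 for KDM1A against SPP1 and 2 to 4 for CDKN1A against SPP1 knockdown. Where fewer samples, a coarser sample or another spread does not itself account for a lost call, the cause was not tested. The counts of all genes called moved over the alternatives too, with ranges given below. No change in a count of members is therefore read as particular to the clock.

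As a replicate block, the replicate number lowered the members called in CDKN1A knockdown to 0 (NR1D2 adjusted p 0.0625) and changed no other count of members. The deviations of replicates of 1 number in different guides did not go together across genes (r -0.12 to 0.07 over 36 pairs of guides). Whether replicates of 1 number share a smaller difference, or one in few genes, was not tested. Members called between guides and over replicates (2 and 0), and each guide against control (11, or 10 with RLE), stayed within 1.5 times. In the contrasts of each guide against control, 4.58% (SPP1 guide 1) to 14.1% (KDM1A guide 2) of all 13527 genes were called. Beside these shares, 0 to 2 of the 10 members were called per guide. All genes called ranged over the alternatives from 1 to 1172 in CDKN1A, 162 to 2229 in KDM1A and 1 to 1761 in SPP1 knockdown against control (271, 1224 and 738 as reported). They ranged from 437 to 3049 for KDM1A against CDKN1A knockdown (2022 as reported). For KDM1A against SPP1 knockdown the range was 244 to 2674 (1611 as reported), and for CDKN1A against SPP1 knockdown 111 to 2839 (1628 as reported). Depth limits DBP most, at 6 to 27 counts a library.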
